A study of Mus musculus with 12 samples.

Results

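The comparison set the 6 arrays numbered 1 in their titles against the 6 arrays numbered 2, which are all 12 arrays of the series. Each array was paired with the array of the same group that carried the other number, which gave 6 pairs. The groups were 5 pieces of the mouse cerebral hemisphere at E16.5, a late embryonic age, named medial, dorsal, ventral, rostral and occipital, and the whole hemisphere. No group carried a mutation, a transgene or a treatment in the labels, and strain and sex were not given there. The protocol describes selection of poly(A)+ RNA with oligo dT, although the molecule label reads total RNA. It then describes cDNA primed with oligo dT and biotin-labelled cRNA on an Affymetrix U74A array. One piece is called rostral in the titles and lateral in the protocol. The same text says that the experiment was done on independent dissections. It does not say whether the 6 arrays of one number came from a single dissection, from pooled embryos or from a single hybridisation day, so these cannot be told apart here. The p-values therefore measure how alike the 6 pairs were, and not the spread between dissections.

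At this age the dorsal telencephalon holds dividing radial glia at the ventricle, intermediate progenitors next to them, and newly made neurons that migrate outward into the cortical plate. A small difference in stage changes the balance of these cells, and the onset of astrocyte genes follows late in this period. Immediate early genes such as Fos and Nr4a1 respond within minutes to stimulation or injury of tissue. Most mRNAs end in a poly(A) tail, whereas 18S ribosomal RNA has none and replication-dependent histone mRNAs end in a stem-loop instead. Priming with oligo dT copies an RNA from its 3′ end, so the signal of 5′ probes relative to 3′ probes on a long transcript follows the length of the cDNA.

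The deposited value of a probe set was the average difference, a linear measure of perfect-match minus mismatch signal that can be negative. Per array, the mean after trimming 2% at each end was 2501.6 to 2501.9. Array medians ran from 735 to 849 in replicate 1 and from 766 to 849 in replicate 2, and negative values made up 16.9% to 19.3% and 19.4% to 21.7% of an array. Values under a floor of 693.5 were set to the floor before log2, and 5832 probe sets above 2 times the floor on at least 2 arrays were tested. A probe set is called here when its limma difference, with group as a block, has a Benjamini-Hochberg adjusted p under 0.05. Every log2 difference below is replicate 2 minus replicate 1.

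The pairs were not equally alike, and the occipital pair was the least like the others. Across the 5832 tested probe sets, the log2 differences of the medial, dorsal, ventral and hemisphere pairs correlated with each other at r = 0.45 to 0.56. Those of the rostral and occipital pairs correlated with each other at -0.06. The occipital pair correlated with the other 4 at 0.10 to 0.40, and the rostral pair with them at 0.36 to 0.50. These are correlations across probe sets of arrays that share a platform and a scaling, and they are given as a description. The hemisphere pair had the widest differences. Because the rostral and occipital pairs did not correlate with each other, the counts below are given with and without these 4 arrays.

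The 6 replicate 2 arrays differed from the 6 replicate 1 arrays at 1004 of the 5832 probe sets (17.2%). Of these, 570 were higher in replicate 2 (9.77%) and 434 were higher in replicate 1 (7.44%). Which direction held more calls depended on the scaling, with 502 against 520 after quantile normalization and 481 against 531 after median centring. The direction was the same in all 6 pairs for 867 of the 1004 and in 5 of 6 pairs for 135. Over all 5832 tested probe sets it was the same in all 6 pairs for 1458 (25%). The call itself favours probe sets whose pairs agree, so the agreement among the 1004 is no separate result. Most called differences were small, with a median size of 0.52 on the log2 scale, and 392 called probe sets differed by at least 1.5-fold (6.72%). Fewer reached 2-fold: 47 probe sets were called with at least a 2-fold higher level in replicate 2 (0.806%) and 12 with at least a 2-fold higher level in replicate 1 (0.206%). All 6 arrays of replicate 2 lay above all 6 of replicate 1 at 194 tested probe sets (3.33%), and the reverse held at 167 (2.86%). The number called depended on which pairs entered the fit. It was 240 without the medial pair, 261 without the dorsal pair, 319 without the ventral pair, 477 without the hemisphere pair, 651 without the rostral pair and 1119 without the occipital pair. Without the rostral and occipital pairs together it was 605, of which 475 were among the 1004. The medial, dorsal and ventral pairs were thus the ones whose omission lowered the count most.

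**Figure D1:**
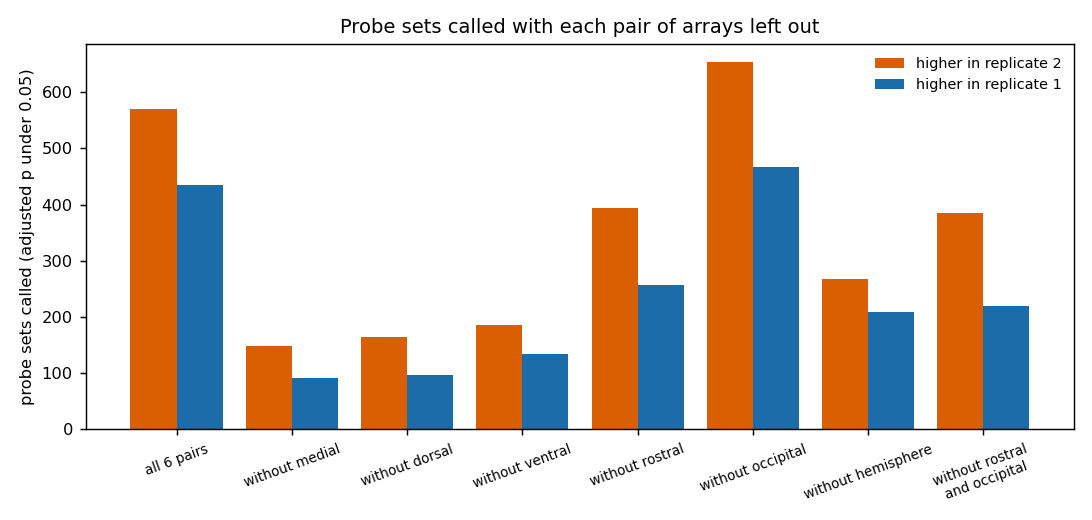
Number of tested probe sets called higher in replicate 2 (orange) or in replicate 1 (blue) with all 6 pairs, with each pair left out, and without the rostral and occipital pairs. The counts fell most without the medial pair, to 149 and 91, and rose without the occipital pair, to 653 and 466.

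Replicate number accounted for 22.8% of the variance of the log2 values over the tested probe sets, the 6 groups for 51.3%, and the remainder for 25.9%. These shares are not corrected for the number of levels, 6 for group and 2 for replicate number. A term with more levels takes a larger share even without a true difference, so the shares do not rank the terms. The first principal component held 29.6% of the variance, and the ventral arrays had its highest scores, at 18.9 and 31.0. The next was hemisphere replicate 2, at 13.6. On this component the replicate 2 array lay above the replicate 1 array of its group in all 6 pairs. The second held 24.1%, and on it the replicate 2 array lay below the replicate 1 array of its group in all 6 pairs. The size of the difference varied between pairs, with an SD of the log2 differences from 0.39 in the dorsal pair to 0.66 in the hemisphere pair. In the same fit, 352 probe sets differed between the 6 groups (6.04%), and 55 of them were also called between the replicate numbers. This overlap was close to the share over all 5832 tested probe sets, of which 17.2% were called between the numbers. The count of 352 fell to 2 without the ventral pair, 55 without the medial pair and 122 without the dorsal pair, rose to 525 without the occipital pair, and was 138 without replicate number as a block.

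**Figure D2:**
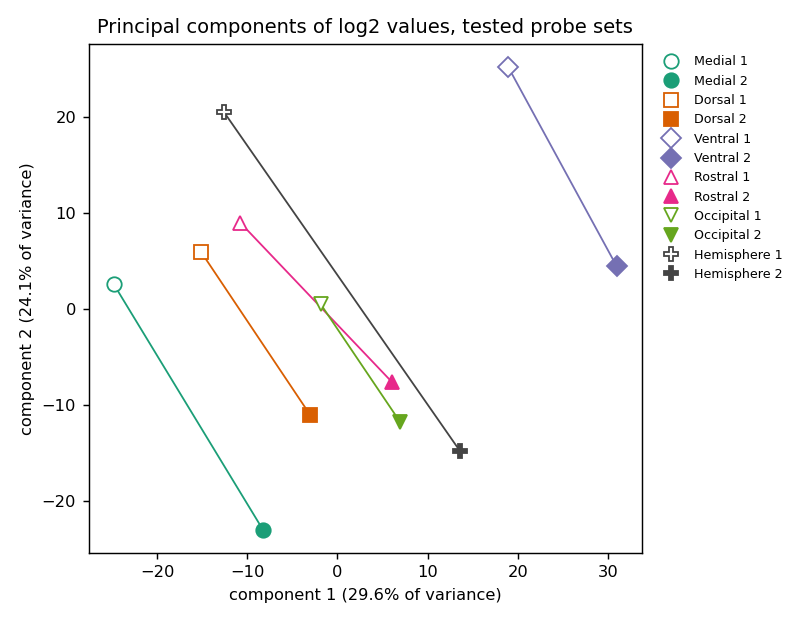
First and second principal components of the log2 values of the 5832 tested probe sets, as scores without units, with open symbols for replicate 1, filled symbols for replicate 2 and a line joining each pair. All 6 lines run down and to the right from replicate 1 to replicate 2, and the ventral pair lies farthest to the right.

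A probe set for replication-dependent H2A histones, whose proteins package newly copied DNA, was higher in replicate 2 in every pair. Its log2 difference was the largest with the floor of 693.5, but with the floor divided by 2 Uhmk1 and Ptpru, which lay at the floor on 5 and 4 replicate 1 arrays, stood higher, at 2.20 and 2.14. The annotation gives this family probe set 13 H2A genes and Trim17, so the genes cannot be told apart. Its average difference ran from 13007 to 22464 with a median of 17351 in replicate 1, and from 37723 to 89245 with a median of 69921 in replicate 2. The groups did not overlap, and the level was higher in replicate 2 in 6 of 6 pairs. The log2 difference was 1.92 ± 0.12 (SE, n = 6 pairs), a 3.79-fold difference, with a limma adjusted p of 0.000685. The call held with any pair left out (1.86 to 2.00) and without the rostral and occipital arrays (1.89). Within each number the ventral array was the lowest.

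The H2A genes of this probe set lie mostly in 1 cluster, with 12 of 13 on chromosome 13 and H2aw on chromosome 11 (GRCm38.p6). They share 1 probe set and thus 1 value, so whether they changed together cannot be told. The sequence before the start site is shown for the 3 genes whose 250 bases before the RefSeq start hold TATAAA on the coding strand. Capitals mark TATAAA and the CCAAT box, searched on both strands as CCAAT and ATTGG, and no marked letters of one motif fall in another in the windows shown. The windows are H2ac4 at chr13:23750838-23751087 on the plus strand, H2ac6 at chr13:23683960-23684209 on the minus strand, and H2ac22 at chr13:21787249-21787498 on the minus strand.
H2ac4: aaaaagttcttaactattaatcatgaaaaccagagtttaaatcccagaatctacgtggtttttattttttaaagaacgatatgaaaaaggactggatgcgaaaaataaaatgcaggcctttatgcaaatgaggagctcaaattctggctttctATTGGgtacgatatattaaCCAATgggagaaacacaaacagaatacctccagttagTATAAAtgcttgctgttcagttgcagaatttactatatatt
H2ac6: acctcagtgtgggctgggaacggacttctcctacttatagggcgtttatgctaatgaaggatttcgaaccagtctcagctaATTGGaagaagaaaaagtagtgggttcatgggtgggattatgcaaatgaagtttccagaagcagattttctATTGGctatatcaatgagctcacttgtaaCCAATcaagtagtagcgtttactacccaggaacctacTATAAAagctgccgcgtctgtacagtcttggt
H2ac22: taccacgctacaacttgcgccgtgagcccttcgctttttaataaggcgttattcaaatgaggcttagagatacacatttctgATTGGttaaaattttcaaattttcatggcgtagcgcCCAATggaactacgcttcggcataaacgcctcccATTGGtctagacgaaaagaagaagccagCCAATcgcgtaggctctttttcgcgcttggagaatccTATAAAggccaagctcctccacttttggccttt

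All 13 H2A genes had a window, and each held between 2 and 5 CCAAT boxes. Of the 32851 RefSeq windows of this length, 33.8% held at least 1 CCAAT box on either strand, 9.91% held 2 or more, and 7.59% held TATAAA. These matches are descriptions of the letters, and the arrays measured no binding.

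The array carried 24 probe sets for replication-dependent histones, of which 7 passed the filter on low values. The set was put together after the H2A value was seen. Of the 7, 3 were called higher in replicate 2 and 0 higher in replicate 1, where 9.77% and 7.44% of all tested probe sets were. The 3 include the H2A probe set that prompted the count. A probe set shared by H2ac18, H2ac19 and an H2A pseudogene ran from 1357 to 3430 in replicate 1 and from 1715 to 6309 in replicate 2, with a log2 difference of 1.03 ± 0.23 (limma adjusted p = 0.0247). These ranges overlapped, and the call ended without the medial, dorsal or rostral pair. One H3 family probe set ran from 9924 to 15423 and from 14686 to 22243, with a log2 difference of 0.48 ± 0.10 (limma adjusted p = 0.0237), and its call ended without the medial, dorsal, ventral or hemisphere pair. The other H3 family probe set, for the same 12 genes, was not called, at 0.26 ± 0.16. The remaining 3 were not called either, with H3c14 at 0.10 ± 0.09, H2bc1 at -0.35 ± 0.16 and H1f2 at -0.23 ± 0.32. The histones H2az1, H2az2, H2ax, H1f10 and Macroh2a1, whose mRNAs can carry poly(A) tails, were tested on 6 probe sets, and 0 of the 6 was called. H2az1 stood at -0.20 ± 0.14 and H2ax at -0.27 ± 0.09. Over all 11 tested histone genes with a single symbol on their probe set, 0 were called and the median difference was -0.20.

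Beta-actin, an abundant cytoskeletal mRNA, was higher in replicate 2 in 6 of 6 pairs at all 3 of its control probe sets. The 5′ probe set ran from 59066 to 78992 in replicate 1 and from 85492 to 100971 in replicate 2, and the middle one from 53977 to 69962 and from 89099 to 101430, both without overlap. The 3′ probe set ran from 81526 to 100611 and from 99859 to 125530, with a slight overlap. The value of the 5′ probe set divided by that of the 3′ one ran from 0.604 to 0.831 in replicate 1 and from 0.804 to 0.887 in replicate 2. It was higher in replicate 2 in 6 of 6 pairs, by 0.26 ± 0.15 on the log2 scale (SD, n = 6). The exact sign-flip permutation test gave a two-sided p of 0.03125, the smallest that 6 pairs allow, and 0.0625 after adjustment over the 2 control transcripts, which does not pass 0.05. The middle probe set over the 3′ one gave ranges that did not overlap, 0.554 to 0.736 and 0.808 to 0.896.

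The same ratio for GAPDH, a glycolytic enzyme with a shorter mRNA, did not go the same way. It ran from 0.982 to 1.16 in replicate 1 and from 0.979 to 1.14 in replicate 2, with 2 of 6 pairs higher in replicate 2 and an exact p of 1. The occipital pair differed least in the beta-actin ratio, at 0.831 and 0.840.

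The 5′ probe set for 18S ribosomal RNA ran from 474 to 1406 in replicate 1 and from 2260 to 5139 in replicate 2, without overlap. Its 3′ probe set also did not overlap, at 2515 to 3625 and 3680 to 4912. The middle 18S probe set overlapped, at 840 to 1929 and 943 to 1806. The bacterial and phage spike-in controls, added with the hybridisation mix, had overlapping ranges and were higher in replicate 2 in 1 or 2 of 6 pairs, at levels such as 5173 to 14004 and 6174 to 8831 for the BioC 3′ probe set. The part of cDNA length, ribosomal RNA or hybridisation in the gene differences was not tested.

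**Figure D3:**
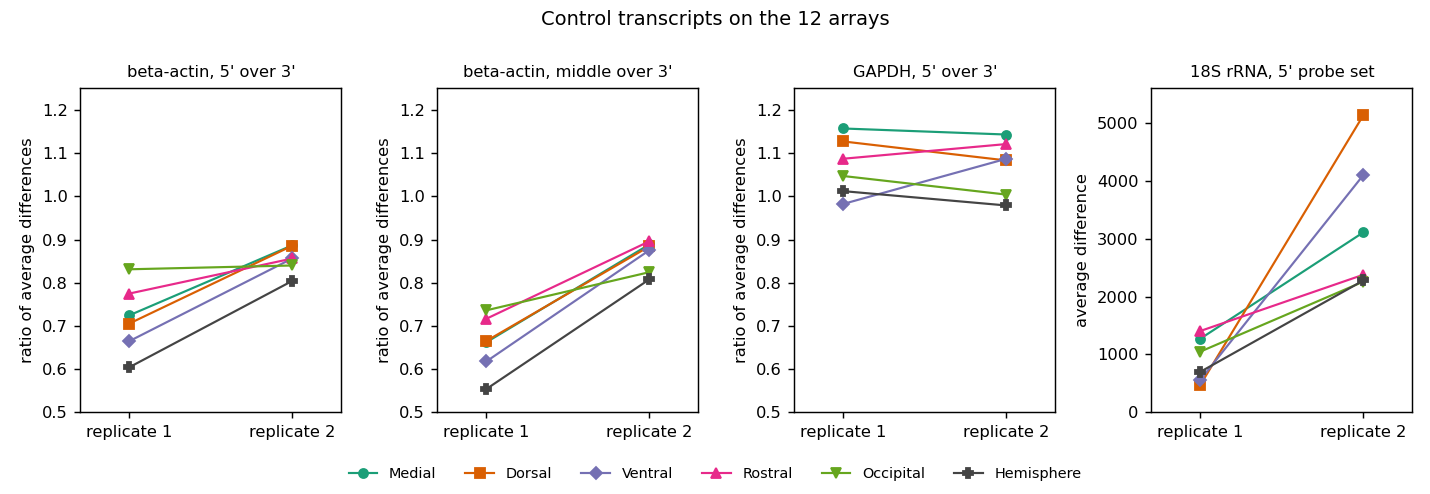
Control transcripts on each of the 12 arrays, joined by pair: ratios of average differences of the 5′ or middle probe set to the 3′ probe set for beta-actin and GAPDH (vertical axes from 0.5), and the average difference of the 5′ probe set for 18S ribosomal RNA. The beta-actin and 18S lines rise in all 6 pairs, while 2 of the 6 GAPDH lines rise.

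Genes were ranked by 1 probe set each, the one with the highest mean level among their called probe sets with a single symbol and the same sign in all 6 pairs. On these probe sets the 15 genes with the largest differences in favour of replicate 2 stood at 1.15 to 1.86. They were Uhmk1, Prkd2, Canx, Ptpru, Clgn, Daglb, Traf2, Atp8a1, Pax5, Ctrl, Scd1, Ccnd2, Mef2c, Gstm2 and Cggbp1. Prkd2, Clgn, Ctrl, Scd1, Gstm2 and Cggbp1 stood here on probe sets with the suffix r, chosen under relaxed probe selection rules. That type leaned to replicate 2 as a whole, with 26.6% called higher in replicate 2, so these differences may belong to the probe set type. Prkd2, a protein kinase D, ran from 899 to 1929 with a median of 1304 in replicate 1 and from 3387 to 5612 with a median of 4922 in replicate 2. The groups did not overlap, and the log2 difference was 1.80 ± 0.21 (limma adjusted p = 0.00541). Traf2, an adaptor of tumour necrosis factor receptors, ran from 2271 to 3491 and from 5808 to 9672, again without overlap (1.46 ± 0.17, limma adjusted p = 0.00541). Pax5, a transcription factor of B cells and of the midbrain boundary, ran from 1392 to 2185 and from 3953 to 4994 (1.35 ± 0.12, limma adjusted p = 0.00298).

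Ccnd2 encodes cyclin D2, a G1 cyclin of cortical progenitors. It ran from 898 to 4726 with a median of 2862 in replicate 1 and from 3114 to 8453 with a median of 5885 in replicate 2. These ranges overlapped because the groups differ in level, and it was higher in replicate 2 in 6 of 6 pairs (1.27 ± 0.23, limma adjusted p = 0.0163). Mef2c, a transcription factor of maturing cortical neurons, ran from 2678 to 7109 and from 6841 to 18248, with the dorsal array highest in both numbers (1.19 ± 0.16, limma adjusted p = 0.00925). It had 3 probe sets called higher in replicate 2, at 1.18, 1.19 and 1.28, and 1 more at 0.04 ± 0.16 that was not called.

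Other probe sets of the same gene often stood elsewhere. Uhmk1, a kinase with an RNA-binding domain, was at 1.86 on its called probe set, where replicate 1 was at or under the floor on 5 of 6 arrays, and at -0.32 on the other. Canx, the lectin chaperone calnexin of the endoplasmic reticulum, was at 1.73 and -0.24. Scd1, which makes monounsaturated fatty acids, was at 1.29, 0.17 and -0.04. Cggbp1, which binds CGG repeats, was at 1.15 and -0.03 on 2 probe sets, and on its remaining one all 6 replicate 1 arrays lay at the floor, at least a 2.56-fold difference. Ptpru, Ctrl, Daglb and the Cggbp1 probe set at 1.15 lay at the floor on 3 or 4 replicate 1 arrays and Canx on 2, so their differences depend on the floor. Of these 15 genes, 13 kept their call whichever pair was left out. Daglb lost it without the ventral, rostral, occipital or hemisphere pair, and Cggbp1 without the medial pair. Without the rostral and occipital arrays 14 of the 15 kept it.

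By the same ranking, the 15 genes with the largest differences in favour of replicate 1 stood at -1.75 to -0.88. They were Bcar1, Map1b, Pax4, Snrpb2, Sars, Akt2, Polr2i, Map4k4, Atp5d, Cbr1, Skp1, Cetn3, Pdia4, Grk6 and Khdrbs1. Bcar1, the adhesion adaptor p130Cas, ran from 1959 to 3142 with a median of 2202 in replicate 1 and from -1162 to 315 in replicate 2. All 6 replicate 2 arrays lay at the floor, so the level was at least 3.36-fold higher in replicate 1 (limma adjusted p = 0.000685). Map1b, a microtubule-associated protein of growing axons, ran from 1355 to 2712 with a median of 2078 in replicate 1 and from 625 to 853 with a median of 701 in replicate 2 (-1.45 ± 0.11, limma adjusted p = 0.00213). Neither gene overlapped between the numbers, and 3 of the 6 replicate 2 arrays were at the floor for Map1b.

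Snrpb2, a protein of the U2 spliceosomal particle, ran from 1205 to 2416 and from 332 to 1112 without overlap (-1.19 ± 0.13, limma adjusted p = 0.00529), with 3 of 6 replicate 2 arrays at the floor. Khdrbs1, the RNA-binding protein Sam68, ran from 4633 to 5994 and from 2592 to 3694 (-0.88 ± 0.08, limma adjusted p = 0.00298). Skp1, a subunit of SCF ubiquitin ligases, ran from 12335 to 16423 and from 4381 to 9144 (-0.97 ± 0.17, limma adjusted p = 0.0162). All 3 of these genes had every replicate 1 array above every replicate 2 array.

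Polr2i lay at the floor on 4 replicate 2 arrays, Pax4 on 2 and Akt2 on 1. Map4k4 was at -1.06 on its called probe set, with a replicate 1 mean of 4165. On its other probe set, with a replicate 1 mean of 15649, it was at 0.01 ± 0.08 and not called. Atp5d was at -1.01 on the probe set ranked here and at -0.80 and -0.06 on its others, and the last was not called. Cetn3 was at -0.93 and -0.35. Of the 15 genes higher in replicate 1, 8 kept their call whichever pair was left out, namely Bcar1, Map1b, Pax4, Snrpb2, Map4k4, Skp1, Grk6 and Khdrbs1. The call of Sars, which charges serine tRNA, ended without the medial or ventral pair. That of Atp5d ended without the medial pair, and that of Akt2 without the dorsal, ventral or hemisphere pair. Cbr1, Polr2i, Cetn3 and Pdia4 each lost it without 2 to 4 of the pairs. Without the rostral and occipital arrays 11 of the 15 kept it, and Skp1 was among the 4 that did not.

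**Figure D4:**
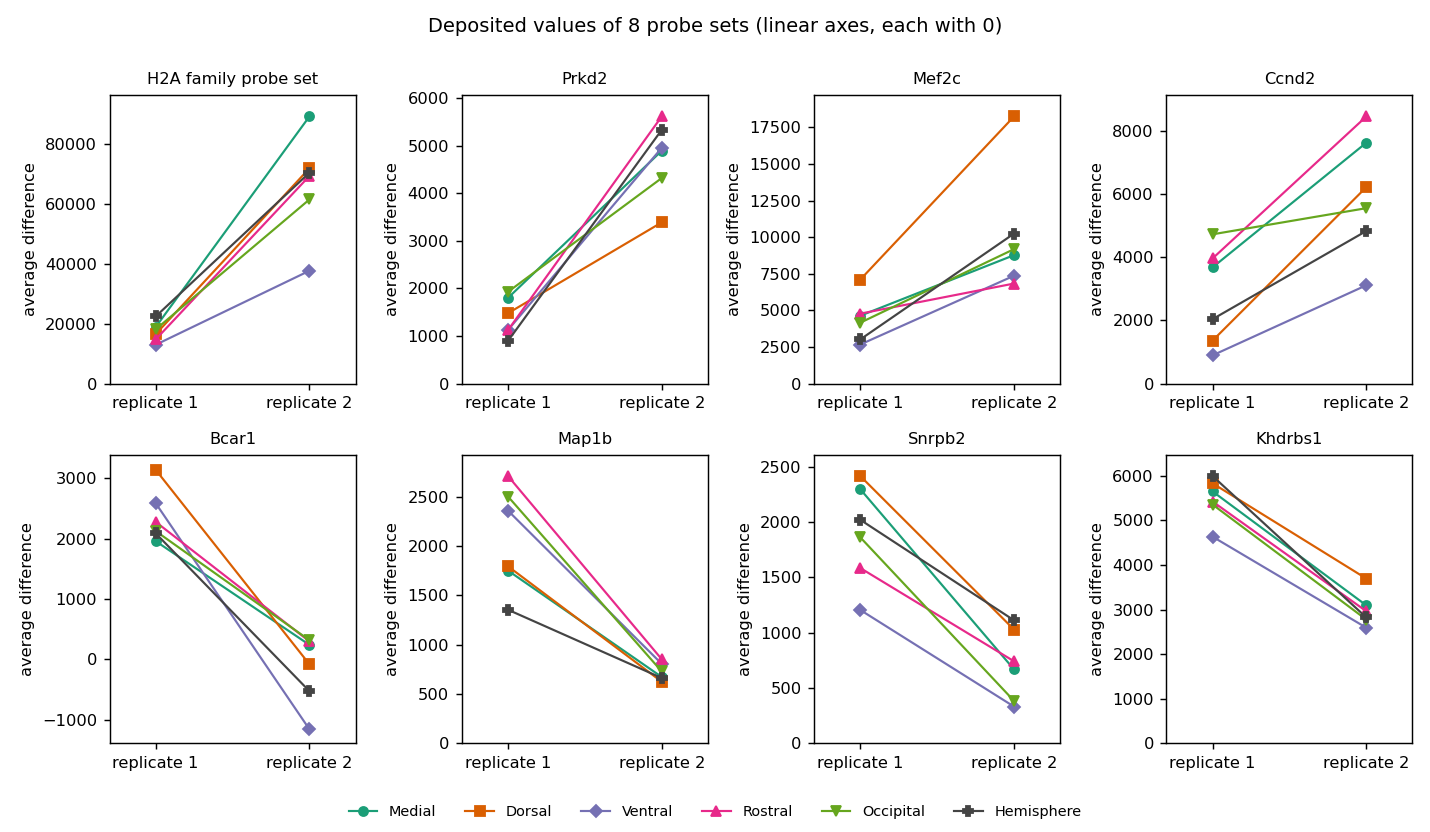
Average difference of 8 probe sets on each array, joined by pair, with replicate 1 at the left and replicate 2 at the right of each panel and linear axes that include 0. The upper 4 (H2A family, Prkd2, Mef2c, Ccnd2) rise and the lower 4 (Bcar1, Map1b, Snrpb2, Khdrbs1) fall in 6 of 6 pairs.

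Gene lists were read against all 4562 tested genes with a single symbol, 1 probe set per gene. Of these, 416 were called higher in replicate 2 (9.12%), 344 higher in replicate 1 (7.54%), and the median log2 difference was 0.00. The difference was positive in 2283 of the 4562 (50%). Across 36 lists with tested members, 99 genes of the lists not named above were called. Of these 99, 13 kept their call whichever pair was left out, namely Atp2b2, Cdc45, Cks2, Cox8b, Glul, Hnrnpa2b1, Hnrnpl, Iars2, Krt6a, Lmo4, Mrpl37, Ndufa6 and Sf3a3. The others lost it without at least 1 pair. Of all 132 named probe sets, the medial pair was needed for the call of 91, the dorsal pair for 84, the ventral pair for 77, the hemisphere pair for 53, the rostral pair for 34 and the occipital pair for 19. Without the rostral and occipital arrays, 51 of the 99 kept their call.

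Lists of cortical cell types and stages held calls in both directions. Of 21 tested radial glial genes, 3 were higher in replicate 2 and 2 in replicate 1, with a list median of 0.14. Sox2, a transcription factor that holds progenitors undifferentiated, was lower in replicate 2, at 10199 to 17356 in replicate 1 and 7317 to 14575 in replicate 2 (-0.52 ± 0.12, limma adjusted p = 0.0261). Pax6, which specifies cortical radial glia, was at -0.28 ± 0.08 (limma adjusted p = 0.0479). Notch1 and its target Hes1, which maintain radial glia, were higher in replicate 2, at 0.77 ± 0.21 and 0.58 ± 0.12. Fabp7 and Nes, abundant radial glial markers, were not called, at -0.08 ± 0.08 and 0.12 ± 0.09. The call of Sox2 ended without the medial, dorsal, ventral or hemisphere pair, and that of Hes1 without the medial or dorsal pair. Those of Pax6 and Notch1 ended with each of the 6 pairs left out in turn.

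Of 51 tested cell cycle genes, 5 were higher in replicate 2 and 2 higher in replicate 1, and the list median was 0.00. Cdc45 and Mcm5, parts of the DNA replication helicase, were higher in replicate 2. Cdc45 was at or under the floor on all 6 replicate 1 arrays, at most 465, and at 776 to 1952 in replicate 2, at least a 2.12-fold difference (limma adjusted p = 0.0135). Mcm5 ran from 1886 to 5734 and from 4881 to 7696 (1.00 ± 0.22, limma adjusted p = 0.0233). Cks2, which binds cyclin-dependent kinases, was lower in replicate 2 (-0.70 ± 0.11, limma adjusted p = 0.0128). Cdk1, the mitotic kinase, was at -0.03 ± 0.09 and Mki67, the Ki-67 proliferation antigen, at -0.60 ± 0.17, neither called. The call of Mcm5 ended without the dorsal or ventral pair, and that of Cdc45 without the rostral and occipital arrays.

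Of 17 tested genes of intermediate progenitors and newborn neurons, 3 were higher in replicate 2 and 1 in replicate 1, with a median of 0.17. Sox11, a transcription factor of newborn neurons, ran from 23231 to 38349 in replicate 1 and from 40395 to 55834 in replicate 2 without overlap (0.53 ± 0.10, limma adjusted p = 0.0185). Its relative Sox4 was at 0.49 ± 0.12, and Insm1, a zinc-finger protein of basal progenitors, at 0.61 ± 0.12. The call of Sox11 ended without the medial, dorsal or ventral pair. Eomes, which defines intermediate progenitors, was not called, at 0.19 ± 0.16, and neither was Dcx of migrating neurons, at -0.02 ± 0.07.

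Of 23 tested genes of pallial projection neurons, 4 were higher in replicate 2 and 2 in replicate 1, with a median of 0.11. Neurod2, a transcription factor of cortical excitatory neurons, was higher in replicate 2 (0.62 ± 0.16, limma adjusted p = 0.0354), as were Ldb2, Nfib and Mef2c. Lmo4, a LIM-only cofactor, was lower in replicate 2, at 14866 to 32210 and 11848 to 21804 (-0.47 ± 0.08, limma adjusted p = 0.0138), as was Cited2. Tbr1 of deep-layer neurons and Neurod6 were not called, both at -0.18. The call of Neurod2 ended without the medial, dorsal or ventral pair.

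Of 29 tested synaptic genes, 3 were higher in replicate 2 and 0 higher in replicate 1, with a median of 0.14. Gria1, a glutamate receptor subunit, ran from 3338 to 8638 and from 5296 to 12483 (0.58 ± 0.11, limma adjusted p = 0.0187). The other calls were Napb and Hpca. Of 38 genes of the neuronal cytoskeleton and identity, 4 were higher in replicate 2 (Elavl2, Ncam1, Dpysl3 and Atp2b2) and 1 higher in replicate 1 (Map1b). Of 18 tested genes of astrocytes and gliogenesis, 3 were higher in replicate 2 and 0 in replicate 1. Glul, the glutamine synthetase of astrocytes, ran from 4740 to 8375 and from 8049 to 12622 (0.77 ± 0.13, limma adjusted p = 0.0152). The others were Nfib and Mt3, and of the 6 fits with a pair left out, only that without the occipital pair called Mt3.

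None of 16 tested genes of GABAergic cells was called, although 14 of the 16 had a negative difference and the median was -0.19. Gad1, which makes GABA, was at -0.24 ± 0.16, and Dlx1, a transcription factor of the ganglionic eminences, at -0.22 ± 0.21. The summed level of these genes ran from 35604 to 152244 in replicate 1 and from 30820 to 136068 in replicate 2, was higher in replicate 2 in 1 of 6 pairs, and varied more between pieces than between the numbers. None of 7 tested striatal genes was called. In tissue pieces, fewer cells of a type and less RNA per cell cannot be told apart.

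Lists of responses to handling and stress held calls in both directions. Of 32 immediate early genes on the array, 14 passed the filter, 2 were higher in replicate 2 and 0 higher in replicate 1, with a median of 0.24. The summed level of the 14 was higher in replicate 2 in 6 of 6 pairs, at 55747 to 66343 in replicate 1 and 66316 to 76107 in replicate 2. A sum follows its brightest members, and the difference was negative in 5 of the 14. Sums were also higher in 6 of 6 pairs for intermediate progenitors and newborn neurons, choroid plexus and hem, skin and epithelium, sterol and fatty acid synthesis, and sex-linked genes. Fosb ran from 1223 to 1950 with a median of 1533 in replicate 1 and from 1857 to 2699 with a median of 2347 in replicate 2 (0.55 ± 0.11, limma adjusted p = 0.0191). Nr4a1, an orphan nuclear receptor, ran from 222 to 1626 and from 702 to 2193 (0.95 ± 0.26, limma adjusted p = 0.0453). Jun went the other way and was not called, at -0.62 ± 0.18, and Dusp1 was at -0.02 ± 0.09. Fos did not pass the filter, with values from 146 to 331 in replicate 1 and from 128 to 683 in replicate 2 on its brighter probe set. The call of Fosb ended without the medial or ventral pair, and of the 6 fits with a pair left out, only that without the occipital pair called Nr4a1.

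Of 26 tested heat shock and chaperone genes, 0 were higher in replicate 2 and 3 higher in replicate 1. These were Cct5 and Tcp1, subunits of the cytosolic chaperonin, and Dnajb1, a partner of Hsp70, at -0.39, -0.34 and -0.31. The inducible Hspa1b was at 0.13 ± 0.09 and not called. Of 18 tested genes of endoplasmic reticulum and amino acid stress, Phgdh was higher in replicate 2 and the disulphide isomerases Pdia3 and Pdia4 higher in replicate 1. Of 18 genes of hypoxia and glycolysis, Ldha, lactate dehydrogenase A, was called, at 23430 to 27465 in replicate 1 and 28640 to 35985 in replicate 2 (0.39 ± 0.07, limma adjusted p = 0.0175). Of 7 tested genes of the p53 response, Btg1 and Sesn1 were higher in replicate 1, and Cdkn1a and Mdm2 were not called.

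In 4 lists of housekeeping complexes, genes had mostly negative differences, meaning higher levels in replicate 1. Of 61 tested genes of oxidative phosphorylation, 8 were higher in replicate 1 and 1 higher in replicate 2, 51 had a negative difference, and the median was -0.20. Of 52 genes of the mitochondrial ribosome the numbers were 10, 2 and 41, with a median of -0.17. Of 59 splicing factors and hnRNP proteins they were 9, 2 and 42, with a median of -0.20. Of 32 proteasome genes they were 4, 0 and 25, with a median of -0.16. The 4 medians stayed negative under quantile normalization, with a mean over the probe sets of a gene, without the rostral and occipital arrays and with each pair left out, from -0.26 to -0.11. Other lists of this kind leaned the same way with smaller medians. The difference was negative in 19 of 25 cytosolic ribosomal protein genes (median -0.09), 24 of 38 translation factors (-0.08) and 12 of 18 aminoacyl-tRNA synthetases (-0.09). Their medians also stayed negative under these alternatives.

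Ndufa6, a subunit of respiratory complex I, ran from 5240 to 6775 in replicate 1 and from 3570 to 5090 in replicate 2 without overlap (-0.61 ± 0.09, limma adjusted p = 0.0107). Hnrnpl, an hnRNP protein that regulates splicing, ran from 6764 to 9572 and from 4777 to 6058 (-0.61 ± 0.10, limma adjusted p = 0.0154). Hnrnpa2b1, another hnRNP protein, ran from 25803 to 29111 and from 16521 to 22337 (-0.48 ± 0.09, limma adjusted p = 0.0167). Psmd14, the deubiquitinase of the proteasome lid, ran from 13192 to 16673 and from 10758 to 12460 (-0.35 ± 0.07, limma adjusted p = 0.0196). None of these 4 overlapped between the numbers.

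The exceptions in these lists were Cox8b, Mrpl37, Mrps18a, Prpf38a and Sf3b1, which were higher in replicate 2. Cox8b, the heart and muscle isoform of a cytochrome oxidase subunit, ran from -178 to 737 and from 1040 to 1962. In replicate 1 it was at the floor on 5 of 6 arrays, so the difference of 0.98 ± 0.12 (limma adjusted p = 0.00786) depends on the floor, and its call ended with the floor times 2. Cytosolic ribosomal protein genes gave 1 call among 25 tested, Rps29 at 1.75 ± 0.39, where 4 replicate 1 arrays were at the floor and the occipital pair went the other way. Translation factors gave 1 call in each direction among 38 tested, Eif3f higher in replicate 2 and Eif4g2 higher in replicate 1. Of 18 aminoacyl-tRNA synthetases, Wars and Qars were higher in replicate 2 and Sars, Hars and Iars2 higher in replicate 1. Of 20 genes of sterol and fatty acid synthesis, Tm7sf2, Nsdhl and Mvk were higher in replicate 2 and 0 were higher in replicate 1.

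**Figure D5:**
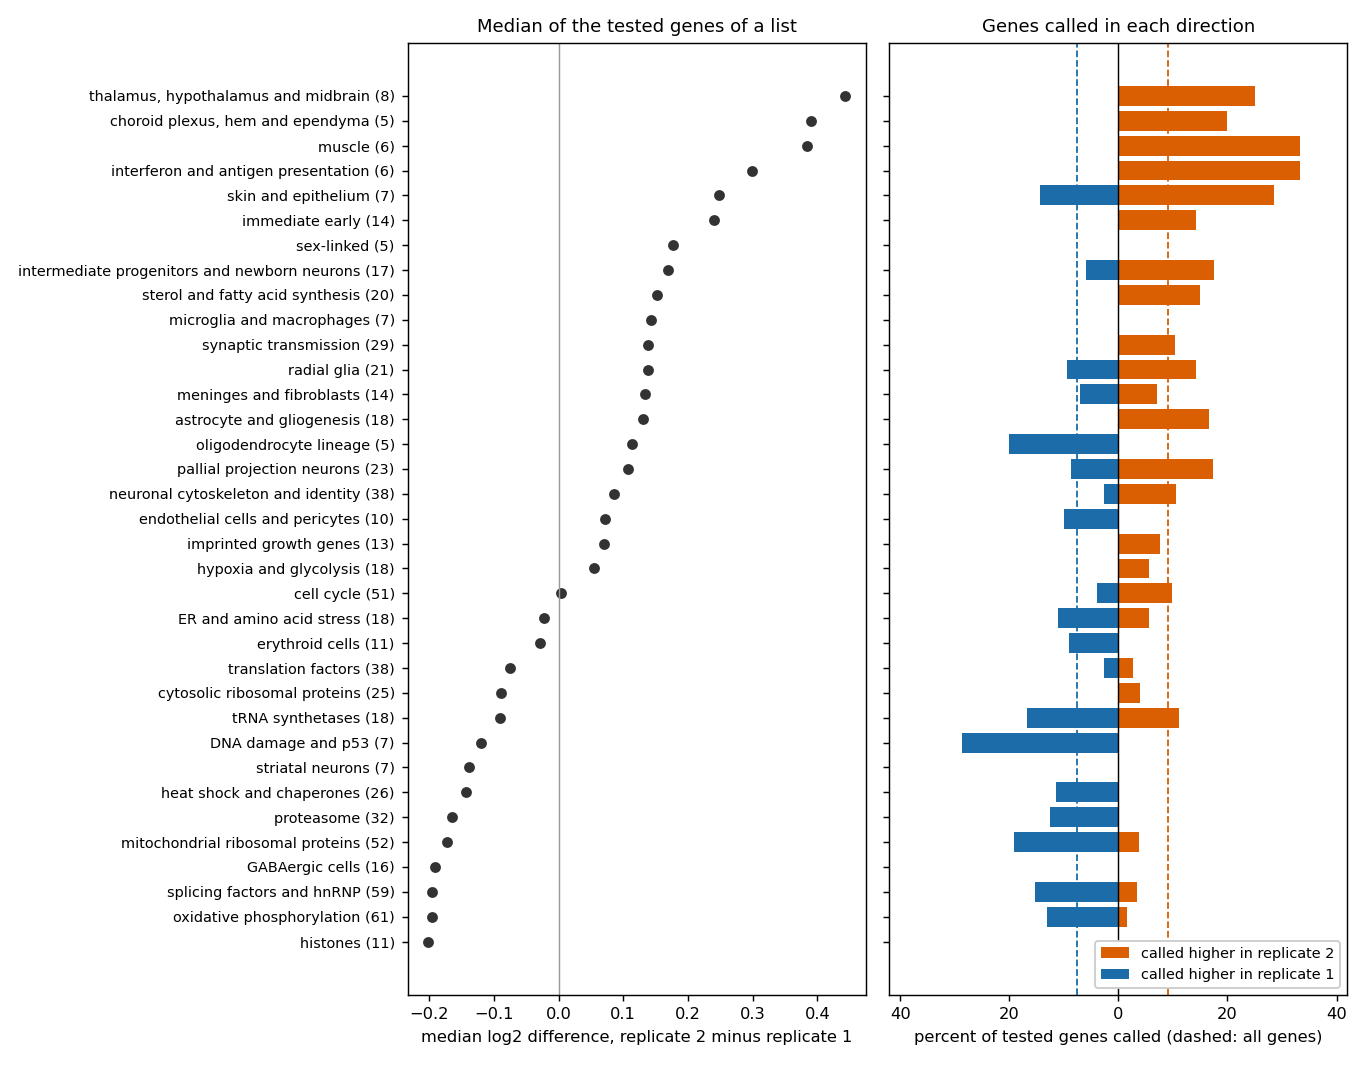
Left, the median log2 difference of the tested genes of each list with at least 5 (number tested in brackets). Right, the percentage of them called higher in replicate 2 (orange) or in replicate 1 (blue), with dashed lines at 9.12% and 7.54% for all genes. The lists of mitochondrial ribosomal proteins, splicing factors and oxidative phosphorylation pass the blue line and stay short of the orange one.

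Markers of tissue next to the cortex were mostly under the filter. Of 37 muscle genes on the array, 6 were tested and 2 called higher in replicate 2. Actc1, cardiac actin, ran from 1780 to 2850 and from 3125 to 4098 (0.67 ± 0.12, limma adjusted p = 0.0166), and Eno3, muscle enolase, was at 0.58 ± 0.11. The summed level of the 6 was 6363 to 10882 in replicate 1 and 9042 to 14072 in replicate 2, and Acta1, the skeletal actin, did not pass the filter. Of 25 skin and epithelial genes, 7 were tested, with the keratins Krt6a and Krt17 higher in replicate 2 and Krt10 higher in replicate 1. Krt6a ran from 837 to 1589 and from 1177 to 2983 (1.14 ± 0.16, limma adjusted p = 0.0107).

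Of 32 genes of thalamus, hypothalamus and midbrain, 8 were tested and 2 called, with a median of 0.44. Nr5a1, a nuclear receptor of the ventromedial hypothalamus, ran from 5676 to 7679 and from 8360 to 11333 on 1 probe set (0.68 ± 0.12, limma adjusted p = 0.0162). Its 4 other probe sets did not pass the filter. Trh, which encodes thyrotropin-releasing hormone, was at 0.56 ± 0.16. The defining thalamic gene Gbx2 and the hypothalamic gene Pomc did not pass the filter. The summed level of the 8 was 12204 to 21672 in replicate 1 and 19712 to 26713 in replicate 2. The part of neighbouring tissue in the differences was not tested.

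Of 14 tested meningeal and fibroblast genes, Serpinh1, a collagen chaperone, was higher in replicate 2 and Cxcl12, a chemokine of the meninges, higher in replicate 1. Of 10 endothelial and pericyte genes, Eng was higher in replicate 1. Of 5 genes of choroid plexus and hem, Msx1 was higher in replicate 2, and Ttr, the main choroid plexus transcript, was not called. None of 7 microglial genes was called, although all 7 differences were positive, with a median of 0.14. Of 5 oligodendrocyte lineage genes, Pdgfra of precursors was higher in replicate 1 (-0.74 ± 0.16, limma adjusted p = 0.0216).

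Of 11 erythroid genes, Mgst3 was higher in replicate 1, and the globins Hba-a1 and Hbb-b2 were not called, at -0.09 and -0.24. The 3 embryonic globins on the array, which mark primitive red cells of earlier embryos, did not pass the filter. Of 6 tested genes of interferon response and antigen presentation, H2-D1 and Irf1 were higher in replicate 2. Of 13 imprinted genes, the noncoding RNA Meg3 was higher in replicate 2, at 0.53 ± 0.10. None of 5 sex-linked genes was called. Xist, expressed from the inactive X chromosome, ran from 2053 to 3347 and from 2464 to 4522. Eif2s3y of the Y chromosome ran from 1156 to 1632 and from 877 to 1258. All replicate 2 values of Eif2s3y lay under the filter level of 1387, so the sex of the embryos cannot be told from these values.

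The type of probe set went with the difference. Affymetrix marks with the suffix r the probe sets for which its probe selection rules were relaxed. Of the 282 tested probe sets of this type, 75 were called higher in replicate 2 (26.6%) and 13 higher in replicate 1 (4.61%), with a median of 0.33. Of the 4749 probe sets with the plain suffix, 413 were higher in replicate 2 (8.70%) and 352 higher in replicate 1 (7.41%). Family probe sets went the other way, with 36 of 440 higher in replicate 2 and 52 higher in replicate 1, although the H2A probe set is one of them. By mean level, 11.7% of the 1458 probe sets of lowest level were called higher in replicate 2, and 7.13% higher in replicate 1. Among the 1458 of highest level the shares were 7.27% and 5.9%, lower in each direction. In the sets of 1458 between them, the shares were 10.4% and 8.3%, then 9.74% and 8.44%, in order of rising level.

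Probe sets of a gene often did not share a call. Of 628 genes with at least 2 tested probe sets, 213 had at least 1 called, and 18 of these had all called the same way. In 9 genes the calls went in both directions, among them Psmd11, Sf3b1 and Mrps18a of the lists above. In 87 genes a called probe set stood beside another of the opposite sign. A gene's call above is therefore the call of the probe set it was measured on.

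Each pair was also set against the other 5, to ask where the difference between the numbers was not alike. The limma interaction called 0 probe sets in each of the 6 contrasts after adjustment. At an unadjusted p under 0.05 it passed 797 for hemisphere, 640 for occipital, 386 for rostral, 195 for medial, 150 for ventral and 71 for dorsal. With no true difference and an equal spread of the pairs, a share of about 0.05 of the 5832 tested probe sets would pass. The spread was not equal, with an SD of the log2 differences from 0.39 in the dorsal pair to 0.66 in the hemisphere pair. A wider pair can exceed this share without a true difference, so the share is only a rough mark. The medial, ventral and dorsal counts lay below this share, and the hemisphere, occipital and rostral counts lay above it. The genes named next had small p-values but were not called. The smallest adjusted p was 0.172, shared by Polr2a, Polr3k and L1cam in the hemisphere pair. L1cam, an adhesion protein of axons, was 1348 in hemisphere replicate 1 and 5615 in hemisphere replicate 2, and between 2523 and 5777 on the other 10 arrays. Timp1, an inhibitor of matrix proteases, was 2236 and 803 in the occipital pair and between 1793 and 2946 on the other arrays (adjusted p = 0.239). Nr4a2, an orphan nuclear receptor of subplate neurons, differed by -1.51 in the rostral pair and by a mean of 1.10 in the other 5 (adjusted p = 0.456). Epha3, an ephrin receptor, was at -1.43 in the rostral pair and 0.47 in the others (adjusted p = 0.387).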

How the data were processed

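The data are 12 arrays, 1 value per probe set. The authors deposited linear intensities, named per the labels as the average difference, scaled per array to a common 2% trimmed mean as the values show. The software and its settings are not given in the sources used here. Negative values define the floor of 693.5, their root mean square. Values were raised to the floor and log2 transformed, and 66 control probe sets were left out of the tests. Probe sets above 1387 on at least 2 arrays were tested, which left 5832. Of these, 5292 have 1 gene symbol in the platform annotation (4562 genes), 212 have several and 328 have none, and 4556 of the 4562 symbols are those of RefSeq (GRCm38.p6) by gene ID.

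Differences were fitted in R 4.3.3 with limma 3.58.1, group and replicate number as fixed terms, 5 residual and 3.00 prior degrees of freedom, two-sided, Benjamini-Hochberg over 5832 probe sets. Folds come from floored log2 means. Each pair against the other 5 used the interaction, with 4 residual degrees of freedom. Control ratios used an exact sign-flip permutation test over 6 pairs. Scripts were tested on simulated data. Lists are described by counts and medians without a test, using the probe set with the highest mean. Named genes are the 15 genes with the largest difference in each direction, each on 1 probe set (the highest mean among called ones with 1 symbol and the same sign in 6 of 6 pairs), list members, control transcripts, and the 3 smallest p per pair contrast. The members and lists were chosen with earlier results of these data known. The equal numbers define the comparison. Alternatives were other floors and filters, quantile normalization, median centring, an arcsinh scale, trend and robust variances, other blocks and left-out arrays. Promoter sequences are from RefSeq. The number of arrays limits the precision.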

Additional observations from a re-analysis of the deposited data

Results flagged for a closer look

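For 136 results with 6 pair differences (named genes, histone probe sets and control ratios), the gap between the most extreme pair and its nearest neighbour was set against the range by Dixon's criterion at the 95% level. In 10 of them 1 pair lay apart, and chance gives this for about 1 in 20 unselected results. The genes and histone probe sets were selected as called, which favours pairs that agree, so this rate need not hold here. Values are log2 differences, replicate 2 minus replicate 1.

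The occipital pair lay apart for 3 genes. It was at 0.19 for the chaperone Canx, where the other 5 pairs were at 1.62 to 2.34. It was at -0.017 for the translation factor Eif3f, against 0.63 to 1.00, and at 0.072 for the tRNA synthetase Hars, against -0.65 to -0.49. The hemisphere pair lay apart for 4 genes, each time with the larger difference. It was at -1.91 for Skp1 (others -1.02 to -0.51), at -0.55 for Tcp1 (-0.35 to -0.25), at 0.97 for Meg3 (0.31 to 0.53) and at -0.84 for the respiratory subunit Uqcrh (-0.46 to -0.25). The ventral pair lay apart for the kinase Map4k4, at -1.94 (others -1.13 to -0.64), and for Insm1, at 1.21 (0.36 to 0.59). The medial pair lay apart for the splicing factor Sf3a3, at -0.62 (others -0.44 to -0.40).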

How the results depend on the processing

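Leaving out either array of a pair removes the pair, so pairs were left out in turn. The count of 1004 ran from 240 to 1119, that of 570 from 149 to 653, that of 434 from 91 to 466, and the group count of 352 from 2 to 525. Without the filter, 12422 probe sets were tested and the counts were 174, 98, 76 and 78. Without the rostral and occipital arrays they were 605, 385, 220 and 675. Without the hemisphere arrays the first 3 were 477, 268 and 209. With at least a 1.5-fold difference, added after seeing the data, 392 were called. Without the replicate block the group count was 138. Other floors, the stricter filter, quantile normalization, arcsinh, trend and robust variances, median centring, no group block and rostral and occipital as 1 group gave 719 to 1147, as did plain-suffix probe sets alone (771, added later). The share higher in replicate 2 was 56.8%, and 49.1% after quantile normalization and 47.5% after median centring. Without the filter the pair contrasts called 139 (medial), 34 (dorsal), 142 (ventral), 59 (rostral), 103 (occipital) and 149 (hemisphere), in place of 0. Most of these were probe sets outside the tested ones, such as 135 of the 139. The beta-actin ratio difference ran from 0.23 to 0.31 with a pair left out, where 5 pairs allow no p under 0.0625, and GAPDH from -0.03 to 0.01. Of 132 named results, 35 kept their call with each pair left out, 0 reversed, and 103 lost it without the filter. The causes were not tested.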
